A study of Rattus norvegicus with 9 samples.

Results

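The potassium channel genes were taken as every gene whose symbol begins with Kcn, and 94 of the 20194 genes in the deposited table met that rule. The 71 of them that reached an FPKM (fragments counted per length of transcript and per depth of the library) of at least 1 in any library are the genes reported here, and the other 23 stayed below that level in all 9 libraries. The members nearest that limit were Kcna3, whose highest library was at 1.0 FPKM, and Kcnab3, whose highest library was at 0.94. RNA-Seq was run on dorsal root ganglion (DRG) tissue of adult male Sprague Dawley rats, with 3 libraries in each of 3 groups. The sham group had a mock operation. The SNI group had a spared nerve injury, in which branches of the sciatic nerve are cut and one branch is left intact. The SNI + G15 group had the same injury and received G15, an antagonist of the G protein-coupled oestrogen receptor GPER, into the intrathecal space. The labels give implantation of the intrathecal catheter on day 5 of SNI, drugs dissolved in 2% DMSO and given for 24 h, and call the sham and SNI libraries controls of G15; they do not say what those control rats were injected with. The study's methods say that ganglia of 3 rats per group were sequenced, while its list of animals names more rats than libraries, so whether a library pools animals is not known here. The study's methods describe the ganglia collected as lumbar ones from the side of the injury.

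Potassium channels let potassium leave a neuron, and so set its resting potential, repolarise each action potential and limit repeated firing. The pore is built by alpha subunits. Voltage-gated (Kv) channels open on depolarisation, inward rectifiers (Kir) hold the resting potential and clear potassium in glia, two-pore channels (K2P) carry background leak, and a further class opens on intracellular calcium or sodium. Auxiliary subunits such as Kv beta subunits, potassium channel-interacting proteins (KChIPs), BK beta subunits and Kcne peptides alter the gating or the trafficking of the pore. In sensory neurons of the DRG, loss of potassium current after nerve injury is a known feature of raised excitability. Of the 71 reported genes, 30 encode voltage-gated alpha subunits (40 listed), 12 inward rectifiers (15 listed), 10 two-pore channels (14 listed), 7 calcium- or sodium-activated channels (8 listed) and 12 auxiliary subunits (17 listed).

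The promoters of some genes named in the results below are shown first. They are the DNA that lies in front of members that fell with injury, rose with injury, or rose after G15. Among them are the members that held a motif searched for here. Each run is the 250 bases before the gene's start, 5′ to 3′ on the gene's strand, from RefSeq's GRCr8 assembly of the rat, and all 94 genes matched that annotation by gene ID and symbol. Kcns1 (gene ID 117023; chr3:173262347-173262596, minus strand) fell in both steps. Kcnmb4 (gene ID 66016; chr7:54005102-54005351, minus strand) rose with injury. Kcnj16 (gene ID 29719, chr10:96517074-96517323, plus strand) rose in the SNI + G15 group. Capitals there mark TGAATCA, a match to TGANTCA, a loose form of the AP-1 motif in which N stands for any base. Kcnh6 (gene ID 116745; chr10:91449401-91449650, plus strand) fell with injury, and capitals mark TTCAGCACC, the first letters of the RE1 element that the repressor REST binds.
Kcns1: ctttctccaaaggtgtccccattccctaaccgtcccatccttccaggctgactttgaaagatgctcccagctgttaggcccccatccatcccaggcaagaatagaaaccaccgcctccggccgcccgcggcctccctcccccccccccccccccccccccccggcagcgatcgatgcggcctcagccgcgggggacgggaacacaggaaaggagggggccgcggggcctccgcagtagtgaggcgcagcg
Kcnmb4: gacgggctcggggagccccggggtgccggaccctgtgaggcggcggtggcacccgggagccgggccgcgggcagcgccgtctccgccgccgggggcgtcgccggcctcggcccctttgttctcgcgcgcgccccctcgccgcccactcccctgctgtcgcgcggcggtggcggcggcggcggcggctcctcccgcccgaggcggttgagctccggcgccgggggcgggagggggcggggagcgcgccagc
Kcnj16: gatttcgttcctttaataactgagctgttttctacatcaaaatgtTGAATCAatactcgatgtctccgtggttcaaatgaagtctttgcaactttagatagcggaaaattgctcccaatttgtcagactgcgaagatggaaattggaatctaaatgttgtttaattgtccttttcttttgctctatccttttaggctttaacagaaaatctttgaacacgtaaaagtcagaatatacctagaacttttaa
Kcnh6: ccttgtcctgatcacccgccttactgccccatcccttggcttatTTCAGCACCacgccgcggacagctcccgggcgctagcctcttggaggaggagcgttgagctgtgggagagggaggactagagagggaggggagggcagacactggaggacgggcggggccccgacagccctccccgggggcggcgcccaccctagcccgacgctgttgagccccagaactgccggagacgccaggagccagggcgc

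The window from 250 bases before to 50 bases after the start was given for 47 of the 71 reported genes and was searched on both strands for these motifs and for the cyclic AMP response element TGACGTCA. The letters TGANTCA, with any base at N, stood in the window of Kcnj16 alone among the 47, against 7.33% of all 27457 promoters in the table. The match in Kcnj16 was TGAATCA, first base at -205 from the start and readable on both strands. The RE1 letters stood in the window of Kcnh6 alone, first base at -206 on the gene's own strand, against 0.379% of all promoters. None of the 47 held TGACGTCA, against 1.91% of all promoters. The 47 genes all reached 1 FPKM, and 11140 of the promoters belong to genes that did. Of those 11140, 5.01% held TGANTCA, 0.458% the RE1 letters and 3.1% TGACGTCA. A match of letters describes the window and is no evidence that a factor binds there.

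The libraries held between 18484557 and 18756736 estimated reads. SNI + G15 replicate 3 stood apart: the differences between replicates, as chi-square per degree of freedom over genes with at least 50 reads, were 8.76 and 9.07 in its pairs and between 2.63 and 4.85 in the other pairs. Summed markers of neurons lay at 7511 to 7775 FPKM in the sham libraries, 8386 to 8553 in the SNI libraries and 8570 to 8986 in the SNI + G15 libraries. Uchl1, Tubb3 and Stmn2 made most of these sums. Of the 8 markers, 2 rose and 3 fell between sham and SNI, and 0 rose and 3 fell between SNI and SNI + G15. The log2 fold changes between SNI and sham were 0.35 for Tubb3 and 0.42 for Stmn2, which rose. They were -0.56 for Rbfox3, -0.45 for Snap25 and -0.16 for Syt1, which fell. The sum thus does not stand for all neuronal genes, and the scaling to these 8 markers used below rests on genes that moved both ways. Markers of injured neurons (Atf3, Sprr1a, Gal and Npy) lay at 15.4 to 23.3 FPKM in sham, 1114 to 1148 in SNI, and 1129 to 1248 with G15. Schwann cell markers lay at 5144 to 5256 FPKM in sham and 2843 to 2901 in SNI, and macrophage markers at 78.7 to 86.8 FPKM in sham and 181 to 200.04 in SNI. These are tissue libraries, so fewer cells of a type and less RNA per cell cannot be told apart, and the part of the shifts in cell markers in the results below was not tested.

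In sham ganglia, mean levels of the 71 genes ran from 0.46 to 362 FPKM with a median of 7.68. Of the 71 genes, 28 were at 10 FPKM or more and 18 were below 2. Kcnab2, a Kv beta subunit, was the most abundant: it was at 355, 361 and 369 FPKM in the sham libraries, 260.0, 248 and 256 in the SNI libraries and 239.8, 247 and 217 in the SNI + G15 libraries, and it made 24.7% of the summed level of all 71 over the 9 libraries. Kcnip3, a KChIP that also acts as the calcium-binding transcriptional repressor DREAM, followed at 95.5, 104 and 98.0 FPKM in the sham libraries, 59.0, 59.8 and 62.5 in the SNI libraries and 56.4, 58.6 and 53.0 in the SNI + G15 libraries. The sham libraries of both genes lay above those of every gene below them in the order. The next in order were the fast-inactivating A-type subunit Kcnd1, the ERG subunit Kcnh2 and the axonal subunits Kcna1 and Kcna2. Kcnd1 was at 74.4, 72.9 and 78.8 FPKM in the sham libraries, 62.3, 61.1 and 62.4 in the SNI libraries and 59.1, 61.3 and 60.3 in the SNI + G15 libraries, and Kcnh2 at 59.5, 58.8 and 64.7 FPKM in the sham libraries, 42.7, 42.0 and 43.5 in the SNI libraries and 34.4, 37.0 and 31.0 in the SNI + G15 libraries. Neighbours in the order of sham means were often not separable, since the sham ranges overlapped in 54 of the 70 neighbouring pairs.

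The summed FPKM of the 71 genes was 1407 ± 16.3 in sham (SD, n = 3), 1075 ± 12.0 in SNI and 957 ± 51.3 in SNI + G15, so that the SNI libraries held 76.4% of the sham level and the SNI + G15 libraries 68.0%. Voltage-gated alpha subunits were at 607 ± 20.3 FPKM in sham, 461 ± 4.94 after SNI and 395 ± 26.6 after SNI and G15. Auxiliary subunits went from 616 ± 11.5 to 447 ± 6.59 and 413 ± 19.7 FPKM. Two-pore channels went from 77.9 ± 0.375 to 64.5 ± 1.02 and 62.3 ± 0.985 FPKM, and inward rectifiers from 57.9 ± 0.996 to 53.3 ± 0.845 and 46.03 ± 2.89. In each of these classes, the summed libraries of the 3 groups did not overlap. Calcium- and sodium-activated channels were at 48.7 ± 2.53 FPKM in sham, 49.7 ± 2.51 in SNI and 41.1 ± 2.96 in SNI + G15, where the sham and SNI libraries overlapped, and as CPM, a count share that does not divide by length, the SNI sum was 98.4% of sham in place of 102%. These sums are descriptions with no test, and few abundant genes weigh most in them.

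**Figure D1:**
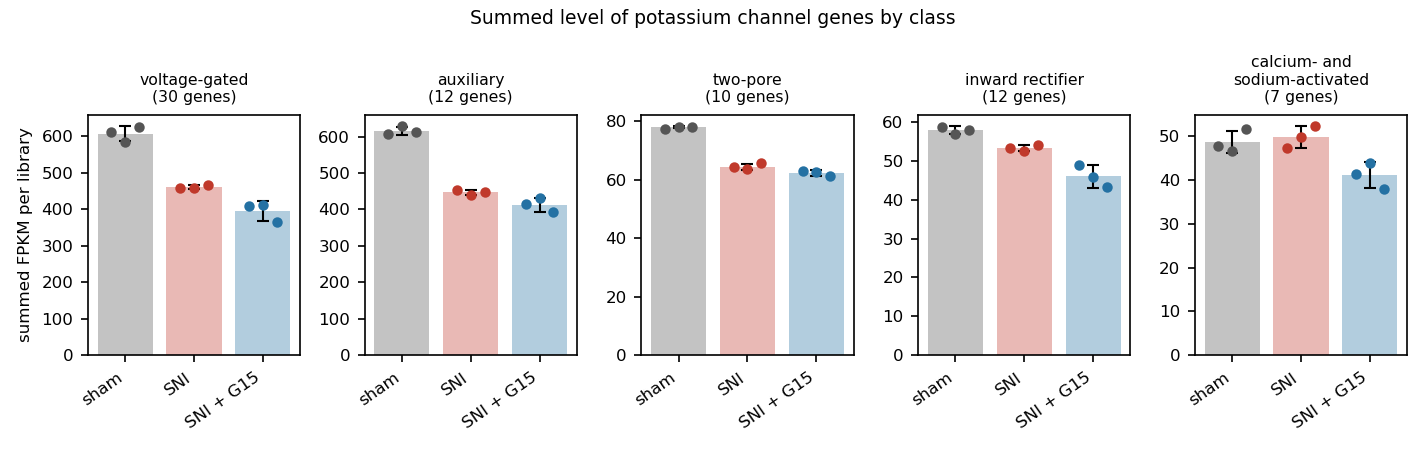
Summed FPKM of the reported potassium channel genes of each class (vertical axes, FPKM, starting at 0) by group; points are libraries, bars the means and error bars the SD of 3 libraries. The voltage-gated sums were 607 in sham, 461 after injury and 395 after injury with G15, while the calcium- and sodium-activated sums of sham and SNI overlapped.

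The first comparison, SNI with sham, asks how nerve injury changed these genes in the ganglion. Most potassium channel genes fell: of the 71, 41 were lower and 9 were higher in SNI at an adjusted p below 0.05 (edgeR quasi-likelihood test, Benjamini-Hochberg adjustment over 14305 genes), against 22.4% of all tested genes called lower and 23.3% called higher. The median log2 fold change of the 71 was -0.34, against 0.00 over all tested genes. The libraries of both groups did not overlap, with SNI lower, for 42 of the 71 genes, against 22.8% of all genes, and with SNI higher for 12 of the 71, against 31.1% of all genes. By class, 23 of 30 voltage-gated, 7 of 12 auxiliary, 5 of 12 inward rectifier, 4 of 10 two-pore and 2 of 7 calcium- or sodium-activated genes fell. The genes that rose were 2 voltage-gated, 2 auxiliary, 3 two-pore and 2 calcium- or sodium-activated genes. Of the 50 calls, 42 were made under every alternative that tested the gene, and the other 8 calls (Kcna6, Kcnj13, Kcnj6, Kcnk2, Kcnk3, Kcnk6, Kcnn4 and Kcnq3) were lost under at least 1. The alternatives include DESeq2, limma, scaling to pan-neuronal markers (neuronal scaling), a filter of 1 FPKM in every library (the stricter filter) and a block for the replicate number.

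Silent subunits, which form no channel alone but join Kv2 subunits, held the largest fall among the voltage-gated genes. Kcns1, in which a human variant has been tied to chronic pain, was at 39.2, 41.2 and 41.6 FPKM in the sham libraries, 21.6, 21.9 and 21.4 in the SNI libraries and 12.6, 13.8 and 15.2 in the SNI + G15 libraries. The 3 groups did not overlap, and every SNI library lay between the levels of the 2 other groups. Its log2 fold change between SNI and sham was -0.94 ± 0.04 (edgeR adjusted p = 4.48e-08). Kcns3, of the same family, was at 35.4, 34.0 and 33.4 FPKM in the sham libraries, 19.5, 21.0 and 19.8 in the SNI libraries and 16.5, 15.9 and 14.5 in the SNI + G15 libraries, and again no group overlapped another. It changed by -0.80 ± 0.05 (edgeR adjusted p = 2.69e-07) on the log2 scale. The silent subunits Kcnf1, Kcng1, Kcng2 and Kcnv1 fell too, with log2 fold changes between -0.59 and -0.41. Kcng4 and Kcnv2, both near 2 FPKM or below, were not called.

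Kcnb2, a Kv2 subunit of the slow delayed rectifier current at the soma, was at 2.93, 2.76 and 3.21 FPKM in the sham libraries, 2.08, 2.37 and 2.52 in the SNI libraries and 2.28, 1.91 and 1.43 in the SNI + G15 libraries. The sham libraries lay above all SNI libraries, and its log2 fold change between SNI and sham was -0.33 ± 0.08 (edgeR adjusted p = 0.00545).

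The Kv1 subunits, which gather beside the nodes of Ranvier and set a brake on firing, fell by different amounts. Kcna2 was at 49.0, 45.4 and 47.0 FPKM in the sham libraries, 31.3, 32.0 and 32.3 in the SNI libraries and 27.2, 26.1 and 23.3 in the SNI + G15 libraries, and its log2 fold change between SNI and sham was -0.59 ± 0.04 (edgeR adjusted p = 3.53e-07). The 3 groups of Kcna2 did not overlap. Kcna1 was at 53.2, 48.0 and 54.6 FPKM in the sham libraries, 43.6, 43.3 and 44.7 in the SNI libraries and 35.5, 36.9 and 27.3 in the SNI + G15 libraries, and changed by -0.27 ± 0.05 (edgeR adjusted p = 0.00162). Its sham libraries lay above all SNI libraries, and SNI + G15 replicate 3 was the lowest of the 9. Kcna4, an A-type subunit of small-diameter neurons, was at 7.85, 7.48 and 7.71 FPKM in the sham libraries, 4.61, 5.42 and 4.85 in the SNI libraries and 5.07, 4.45 and 4.92 in the SNI + G15 libraries. It changed by -0.62 ± 0.06 (edgeR adjusted p = 1.86e-05), with no overlap of sham with SNI. Kcna5 changed by -0.40 ± 0.08 and Kcna6 by -0.10 ± 0.04 on the log2 scale, the latter a call lost by DESeq2 and limma, with neuronal scaling, the stricter filter or the replicate block, and without sham replicate 3 or any SNI replicate. Kcna3 stayed at or below 1 FPKM and was not called.

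Kcnc1, Kcnc2 and Kcnc4, Kv3 subunits that repolarise action potentials quickly, fell. Kcnc1 was at 9.25, 8.46 and 10.3 FPKM in the sham libraries, 5.34, 5.61 and 6.12 in the SNI libraries and 4.26, 3.78 and 3.54 in the SNI + G15 libraries, and its log2 fold change between SNI and sham was -0.76 ± 0.08 (edgeR adjusted p = 3.52e-05). Every sham library was above every SNI library, which in turn was above every SNI + G15 library. Kcnc4, an A-type subunit of nociceptors, was at 44.5, 43.4 and 47.7 FPKM in the sham libraries, 34.7, 32.9 and 36.1 in the SNI libraries and 34.5, 33.8 and 28.5 in the SNI + G15 libraries. It changed by -0.42 ± 0.05 (edgeR adjusted p = 7.89e-05), with sham above SNI throughout and SNI overlapping SNI + G15. Kcnc2 was at 4.56, 4.33 and 4.88 FPKM in the sham libraries, 3.30, 3.42 and 2.98 in the SNI libraries and 2.63, 2.51 and 2.73 in the SNI + G15 libraries, and changed by -0.52 ± 0.07 (edgeR adjusted p = 0.000109).

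The Kv4 subunits, which carry the low-threshold A-type current, fell together with the KChIPs that bind them. Kcnd1, given above, changed by -0.31 ± 0.04 (edgeR adjusted p = 8.89e-05). Kcnd3 was at 19.3, 18.9 and 18.46 FPKM in the sham libraries, 15.2, 15.4 and 15.1 in the SNI libraries and 12.3, 12.1 and 11.8 in the SNI + G15 libraries, with no overlap between groups, and changed by -0.34 ± 0.04 (edgeR adjusted p = 4.68e-05). Kcnip3, also given above, changed by -0.74 ± 0.04 (edgeR adjusted p = 2.53e-07) and its sham libraries lay far above the others. Kcnip1 was at 45.1, 48.6 and 45.0 FPKM in the sham libraries, 37.2, 37.2 and 35.6 in the SNI libraries and 31.8, 35.3 and 34.6 in the SNI + G15 libraries, and changed by -0.39 ± 0.05 (edgeR adjusted p = 8.46e-05). Kcnip4 was at 39.1, 40.8 and 36.0 FPKM in the sham libraries, 29.2, 27.4 and 27.8 in the SNI libraries and 24.3, 23.1 and 21.4 in the SNI + G15 libraries, and changed by -0.49 ± 0.05 (edgeR adjusted p = 3.56e-05). In these KChIPs, sham lay above SNI in every library. Kcnip2 was at 7.88, 10.5 and 8.05 FPKM in the sham libraries, 5.19, 1.41 and 3.37 in the SNI libraries and 2.85, 5.78 and 4.45 in the SNI + G15 libraries, and its log2 fold change of -1.40 ± 0.30 (edgeR adjusted p = 0.00308) was the largest fall among the 71 genes. The SNI libraries of Kcnip2 lay below all sham libraries but differed several-fold among themselves, and its estimated counts were not whole in any library, so part of its reads was apportioned by estimate.

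Among the ether-a-go-go channels, Kcnh2, which resists repeated firing, changed by -0.55 ± 0.04 (edgeR adjusted p = 3.69e-06) from the levels given above, with sham above SNI throughout. Kcnh7 was at 9.46, 8.58 and 8.42 FPKM in the sham libraries, 5.53, 5.92 and 5.46 in the SNI libraries and 4.85, 4.28 and 3.99 in the SNI + G15 libraries, and changed by -0.67 ± 0.05 (edgeR adjusted p = 3.04e-06), and its 3 groups did not overlap. Kcnh6, whose promoter holds the RE1 letters shown above, was at 13.5, 13.3 and 13.8 FPKM in the sham libraries, 8.84, 8.73 and 8.53 in the SNI libraries and 8.18, 8.96 and 7.17 in the SNI + G15 libraries and changed by -0.67 ± 0.05 (edgeR adjusted p = 1.13e-06). Its sham libraries lay above the SNI libraries, which overlapped those of SNI + G15. Kcnh1 was not called.

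Of the Kv7 family, which carries the M-current that holds sensory neurons below threshold, Kcnq3 and Kcnq5 moved in opposite directions. Kcnq3 was at 2.06, 1.75 and 1.68 FPKM in the sham libraries, 2.14, 2.42 and 2.60 in the SNI libraries and 2.19, 1.72 and 1.42 in the SNI + G15 libraries, and its log2 fold change between SNI and sham was 0.35 ± 0.10 (edgeR adjusted p = 0.0133), a call lost with all 9 libraries in one fit, and without sham replicate 3 or SNI replicate 3. Every SNI library lay above every sham library, while the SNI + G15 libraries overlapped both groups. Kcnq5 fell by 0.48 on the log2 scale, with a standard error of 0.06.

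**Figure D2:**
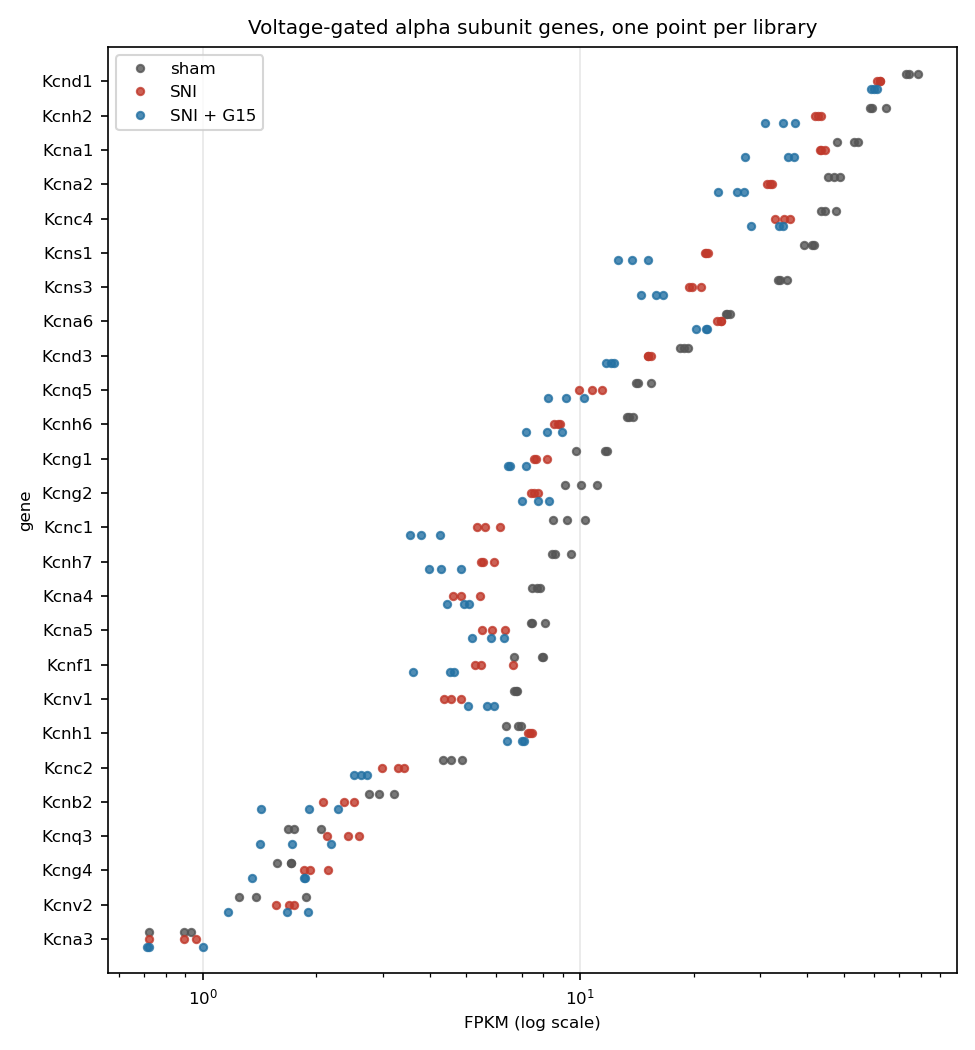
FPKM of 26 of the 30 reported voltage-gated alpha subunit genes on a log axis, ordered by sham mean, with 1 point for each of the 9 libraries. The sham points of 21 of the genes plotted lay wholly above the SNI points, and those of Kcnq3 lay below them.

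Auxiliary subunits held changes in both directions. Kcnab2 changed by -0.54 ± 0.03 (edgeR adjusted p = 3.1e-07), with all sham libraries above all SNI libraries. Kcnab1, also a Kv beta subunit, was at 38.6, 37.6 and 35.9 FPKM in the sham libraries, 29.1, 31.1 and 29.2 in the SNI libraries and 25.4, 23.7 and 23.9 in the SNI + G15 libraries, and changed by -0.36 ± 0.04 (edgeR adjusted p = 8.1e-05). Kcnmb4, the BK beta subunit that slows the channel's gating and makes it resistant to iberiotoxin, was at 10.3, 10.6 and 9.35 FPKM in the sham libraries, 17.5, 20.2 and 19.4 in the SNI libraries and 21.0, 24.2 and 23.6 in the SNI + G15 libraries. No 2 groups overlapped, and sham was the lowest. Its log2 fold change between SNI and sham was 0.88 ± 0.08 (edgeR adjusted p = 7.27e-06). Kcnmb2, a BK beta subunit that inactivates the channel, went the other way by -0.89 ± 0.19 (edgeR adjusted p = 0.00328). Kcne3 rose by 0.78 ± 0.17 (edgeR adjusted p = 0.00381). Kcne2, Kcne4 and Kcnrg were not called.

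Among the two-pore channels, Kcnk1 (TWIK-1) was at 28.9, 31.8 and 29.3 FPKM in the sham libraries, 20.3, 19.7 and 20.1 in the SNI libraries and 16.5, 17.9 and 18.1 in the SNI + G15 libraries, and its log2 fold change between SNI and sham was -0.61 ± 0.05 (edgeR adjusted p = 3.94e-06). Kcnk18, the TRESK channel that is largely restricted to sensory ganglia, was at 9.95, 9.65 and 9.64 FPKM in the sham libraries, 6.63, 6.69 and 6.40 in the SNI libraries and 6.25, 5.67 and 4.68 in the SNI + G15 libraries, and changed by -0.60 ± 0.07 (edgeR adjusted p = 8.18e-05). Both had every sham library above every SNI library. The acid-sensitive Kcnk3 (TASK-1) was at 4.23, 3.46 and 4.44 FPKM in the sham libraries, 3.23, 3.12 and 3.33 in the SNI libraries and 2.55, 3.38 and 3.11 in the SNI + G15 libraries, and changed by -0.35 ± 0.11 (edgeR adjusted p = 0.0239), a call lost by DESeq2 and without sham replicate 1 or 3 or SNI replicate 1 or 2. The mechano- and temperature-gated Kcnk2 (TREK-1) was at 6.60, 5.57 and 5.79 FPKM in the sham libraries, 5.31, 4.84 and 5.66 in the SNI libraries and 6.12, 5.94 and 6.19 in the SNI + G15 libraries. Its sham and SNI libraries overlapped, and its change of -0.20 ± 0.07 (edgeR adjusted p = 0.0406) was lost by DESeq2 and limma, with neuronal scaling, and without sham replicate 1 or 3 or SNI replicate 1 or 2. Its relatives Kcnk4 (TRAAK) and Kcnk10 (TREK-2) differed from it. Kcnk4 was at 14.7, 15.2 and 16.3 FPKM in the sham libraries, 14.9, 14.1 and 14.7 in the SNI libraries and 16.7, 14.6 and 14.4 in the SNI + G15 libraries and was not called, at -0.16 ± 0.06 (edgeR adjusted p = 0.0526). Kcnk10 was at 1.94, 1.83 and 1.81 FPKM in the sham libraries, 2.34, 2.90 and 2.95 in the SNI libraries and 2.55, 2.18 and 1.75 in the SNI + G15 libraries, with SNI above sham throughout, and rose by 0.39 ± 0.10 (edgeR adjusted p = 0.00671).

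Kcnk13 was below 1 FPKM in sham, at 0.45, 0.47 and 0.53, and at 1.08, 1.48 and 0.85 in SNI, a rise of 0.94 ± 0.22 (edgeR adjusted p = 0.00521). It reached 1 FPKM, and so entered the test, only through the injured groups where it was high; in the fit without the FPKM filter it was called as well. Kcnk6 rose by 0.44 ± 0.16 on the log2 scale, a call lost by DESeq2, with the replicate block, and without sham replicate 1 or 3 or any SNI replicate. Kcnk13 is known as a channel of microglia, and the summed macrophage markers moved with it, from 78.7 to 86.8 FPKM in sham to 181 to 200.04 in SNI; their part in the result was not tested. Kcnk12, the relative of Kcnk13 that gives little current alone, was at 8.33, 7.21 and 8.02 FPKM in the sham libraries, 7.28, 7.64 and 7.99 in the SNI libraries and 7.57, 8.46 and 8.08 in the SNI + G15 libraries, all groups overlapping, and was not called, at -0.07 ± 0.07 (edgeR adjusted p = 0.482).

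Inward rectifiers held 5 falls and 0 rises by edgeR, with 0 rises by DESeq2 and 1 at an unadjusted p below 0.05. Kcnj10, the Kir4.1 channel by which satellite glia clear potassium, was at 23.2, 21.0 and 20.6 FPKM in the sham libraries, 22.8, 22.4 and 23.7 in the SNI libraries and 19.6, 18.2 and 14.7 in the SNI + G15 libraries. Sham and SNI overlapped, and the log2 fold change was 0.06 ± 0.06 (edgeR adjusted p = 0.428). Kcnj12 was at 10.4, 10.2 and 10.7 FPKM in the sham libraries, 8.13, 9.08 and 8.37 in the SNI libraries and 8.11, 7.61 and 7.98 in the SNI + G15 libraries, with sham above SNI throughout, and changed by -0.34 ± 0.05 (edgeR adjusted p = 0.000192). Kcnj3, a G protein-gated subunit through which opioid and GABA-B receptors act, was at 8.51, 9.17 and 9.28 FPKM in the sham libraries, 6.37, 6.65 and 7.07 in the SNI libraries and 5.92, 5.72 and 4.82 in the SNI + G15 libraries, and changed by -0.45 ± 0.07 (edgeR adjusted p = 0.000445). Kcnj6, of the same family, fell by 0.25 on the log2 scale with a standard error of 0.06, a call lost by limma, and Kcnj5 and Kcnj9 were not called. Kcnj11, the pore of the ATP-sensitive channel in neurons, changed by -0.64 ± 0.12 (edgeR adjusted p = 0.0013). Kcnj8, the pore of the ATP-sensitive channel in blood vessels, was at 0.83, 1.06 and 1.30 FPKM in the sham libraries, 1.71, 1.09 and 1.68 in the SNI libraries and 1.55, 1.72 and 1.22 in the SNI + G15 libraries and was not called, at 0.46 ± 0.26 (edgeR adjusted p = 0.172). Kcnj13 changed by -0.68 ± 0.21 (edgeR adjusted p = 0.0251), a call lost by DESeq2 and without sham replicate 1 or SNI replicate 1 or 3.

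Of the calcium- and sodium-activated channels, Kcnma1, the BK pore, was at 4.55, 4.25 and 4.32 FPKM in the sham libraries, 4.50, 4.34 and 4.80 in the SNI libraries and 3.54, 3.60 and 3.13 in the SNI + G15 libraries. Sham and SNI overlapped, and the log2 fold change was 0.03 ± 0.06 (edgeR adjusted p = 0.725), so the BK pore gene was not called while the genes of its beta subunits moved in opposite directions. The small-conductance channels (SK), which shape the afterhyperpolarisation, split: Kcnn2 changed by -0.61 ± 0.09 (edgeR adjusted p = 0.000298), and Kcnn3, at 5.47, 4.36 and 4.77 FPKM in the sham libraries, 6.07, 6.20 and 6.88 in the SNI libraries and 4.62, 4.74 and 3.99 in the SNI + G15 libraries, rose by 0.38 ± 0.10 (edgeR adjusted p = 0.00839). Kcnn1 was at 9.82, 9.88 and 12.7 FPKM in the sham libraries, 11.1, 12.2 and 13.4 in the SNI libraries and 8.56, 9.89 and 8.65 in the SNI + G15 libraries, and at 0.19 ± 0.07 (edgeR adjusted p = 0.0587) was not called. Kcnn4, the intermediate-conductance channel, was at 5.71, 6.03 and 6.51 FPKM in the sham libraries, 6.97, 7.15 and 7.76 in the SNI libraries and 7.37, 7.61 and 6.98 in the SNI + G15 libraries, and rose by 0.23 ± 0.07 (edgeR adjusted p = 0.025), a call lost by DESeq2 and without sham replicate 1 or 2 or SNI replicate 3. The sodium-activated Kcnt1 (Slack) was at 15.2, 14.6 and 16.2 FPKM in the sham libraries, 14.1, 15.0 and 14.2 in the SNI libraries and 13.3, 13.7 and 11.5 in the SNI + G15 libraries and was not called, at -0.11 ± 0.05 (edgeR adjusted p = 0.0975). Kcnt2 (Slick) was at 1.88, 1.79 and 1.97 FPKM in the sham libraries, 1.52, 1.08 and 1.31 in the SNI libraries and 1.23, 1.17 and 1.04 in the SNI + G15 libraries, with sham above SNI throughout, and changed by -0.55 ± 0.12 (edgeR adjusted p = 0.00299).

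**Figure D3:**
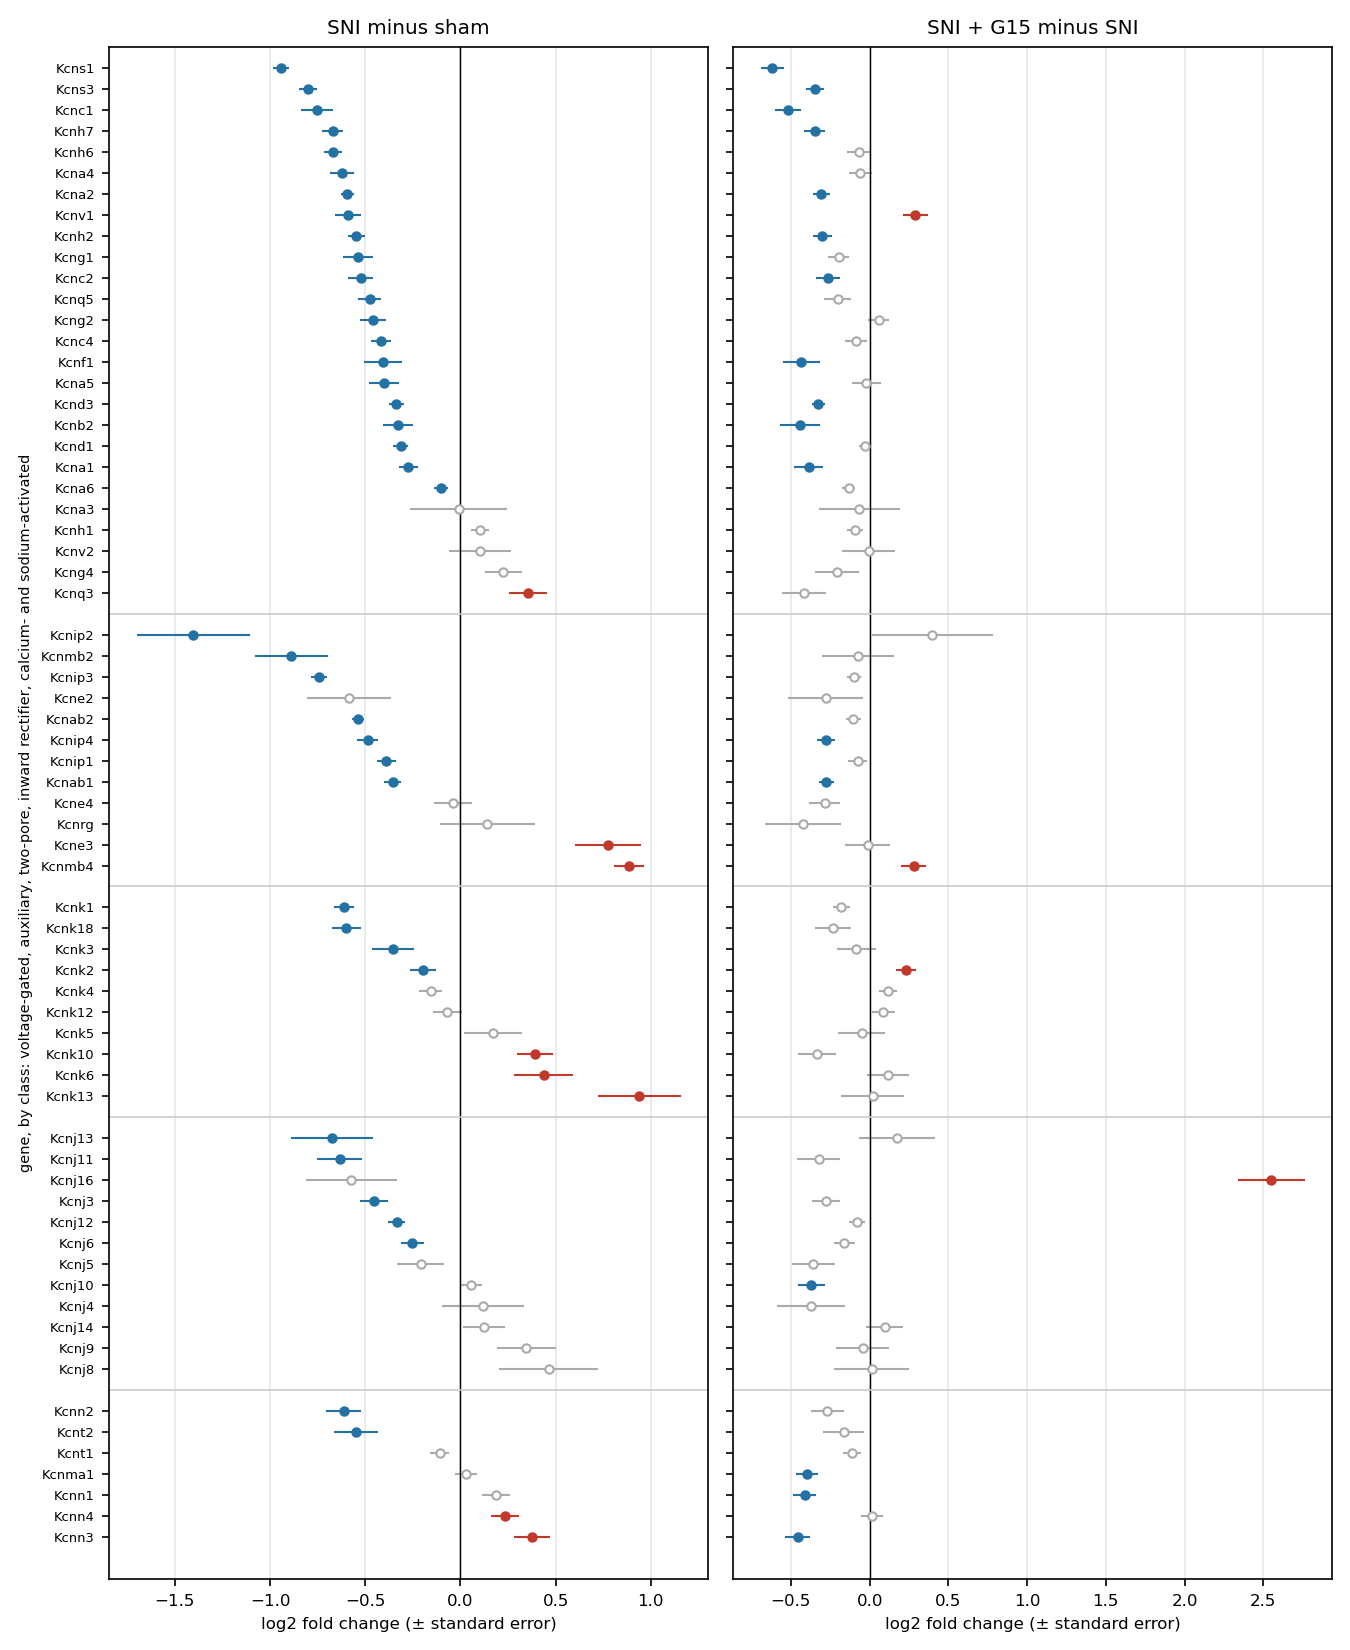
Log2 fold change (horizontal axes; bars are the standard error of the edgeR fit on 6 libraries) of 67 of the 71 genes between SNI and sham (left) and between SNI + G15 and SNI (right), grouped by class; filled points have an adjusted p below 0.05 (red higher, blue lower) and open points do not, and the axes of both panels differ in range. The left panel holds 39 falls and 8 rises, and the right panel 17 falls and 4 rises, among them Kcnj16 at 2.55.

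The second comparison, SNI + G15 with SNI, asks what the GPER antagonist changed after the injury. It shares the SNI libraries with the first comparison, so a chance deviation of these libraries would enter both with opposite sign. Of the 71 genes, 19 were called lower and 4 higher after G15 (adjusted p below 0.05, edgeR quasi-likelihood test, Benjamini-Hochberg adjustment over all genes tested), against 7.25% of all tested genes called lower and 7.98% called higher. The median log2 fold change of the 71 was -0.17, against 0.01 over all genes. Libraries did not overlap, with SNI + G15 lower, for 34 of the 71 genes, against 21% of all genes, and with SNI + G15 higher for 4, against 17.3%. By class the falls were 13 of 30 voltage-gated, 3 of 7 calcium- or sodium-activated, 2 of 12 auxiliary, 1 of 12 inward rectifier and 0 of 10 two-pore genes. Without SNI + G15 replicate 3, the library that stands apart, 18 genes were lower and 3 higher. Without any 1 of the SNI libraries, 11 were lower and 1 higher, and without SNI + G15 replicate 1 or 2 there were 18 and 16 lower and 2 and 1 higher. DESeq2 called 19 lower and 1 higher, limma 16 and 1, and with libraries scaled to the pan-neuronal markers in place of all genes, 11 were lower and 4 higher. Replicate 3 was the lowest of its group in 15 of the 19 genes that fell, and in 43 of all 71.

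Longer genes were lower in SNI + G15 across the whole table, which is given here because many channel transcripts are long. With all tested genes split by length into 5 groups of 2861, the median log2 fold change between SNI + G15 and SNI went from 0.16 in the shortest group through 0.06, 0.01 and -0.03 to -0.11 in the longest, and the share of genes called lower from 2.38% to 16.3%. The potassium channel genes of those groups had medians of -0.07 (5 genes), -0.02 (11), -0.19 (20), -0.15 (20) and -0.21 (15). The members' medians were below those of all genes in each group. The part of transcript length in the calls was not tested. Between SNI and sham, the medians of all genes in the same groups lay between -0.03 and 0.04.

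Of the 19 falls, 15 were in genes that had also fallen between sham and SNI, among them Kcna1, Kcna2, Kcnab1, Kcnb2, Kcnc1, Kcnc2, Kcnd3, Kcnf1, Kcnh2, Kcnh7, Kcnip4, Kcns1 and Kcns3. In all of those named except Kcnb2, whose SNI and SNI + G15 libraries overlapped, every SNI + G15 library lay on the far side of SNI from sham. Kcns1 had the largest of them, at -0.62 ± 0.07 (edgeR adjusted p = 0.00108), followed by Kcnc1 at -0.52 ± 0.08 (edgeR adjusted p = 0.00439). Kcns3 changed by -0.35 ± 0.06 (edgeR adjusted p = 0.00636), Kcnd3 by -0.33 ± 0.04 (edgeR adjusted p = 0.0013) and Kcna2 by -0.31 ± 0.05 (edgeR adjusted p = 0.00636). Kcnab1 changed by -0.28 ± 0.05 (edgeR adjusted p = 0.00579). In each of these 6 genes no SNI + G15 library reached the SNI range, and the call was made under every alternative that tested the gene.

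Other falls among these genes were less secure. Kcnh2 changed by -0.30 ± 0.06 (edgeR adjusted p = 0.0122), a call lost without SNI replicate 3, and Kcnh7 by -0.35 ± 0.07 (edgeR adjusted p = 0.0102), lost without SNI replicate 2. Kcnip4 changed by -0.28 ± 0.06 (edgeR adjusted p = 0.0128), lost without SNI replicate 1 and with neuronal scaling. The call on Kcna1, at -0.39 ± 0.09 (edgeR adjusted p = 0.0269), was lost with neuronal scaling and without each of the SNI libraries. Kcnb2 changed by -0.44 ± 0.13 (edgeR adjusted p = 0.0476). Kcnc2 changed by -0.27 ± 0.07 (edgeR adjusted p = 0.0446). Kcnf1, at 7.96, 6.69 and 7.94 FPKM in sham, 6.65, 5.26 and 5.45 in SNI and 4.63, 4.52 and 3.60 in SNI + G15, changed by -0.43 ± 0.12 (edgeR adjusted p = 0.0404). Calls of these last 3 genes were lost by limma, with neuronal scaling, without each of the SNI libraries and without SNI + G15 replicate 2, those of Kcnb2 and Kcnf1 also without SNI + G15 replicate 3, and that of Kcnc2 also by DESeq2 and without SNI + G15 replicate 1. Those of Kcnb2 and Kcnc2 were lost too with the replicate block and without the FPKM filter.

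3 calcium-activated genes fell in SNI + G15 without having fallen with the injury. Kcnma1, the BK pore, changed by -0.40 ± 0.07 (edgeR adjusted p = 0.0069), Kcnn1 by -0.41 ± 0.07 (edgeR adjusted p = 0.00678) and Kcnn3 by -0.46 ± 0.08 (edgeR adjusted p = 0.00706). For all 3 genes, every SNI + G15 library was below every SNI library, and the calls were made under every alternative that tested the gene. The mean of Kcnn3 thus returned from 6.38 FPKM in SNI to 4.45, near the 4.87 of sham. Kcnj10 of satellite glia changed by -0.37 ± 0.09 (edgeR adjusted p = 0.0243), and SNI + G15 replicate 3 was the lowest of its 9 libraries. The call on Kcnj10 was lost with neuronal scaling and without each of the SNI libraries. Summed satellite glia markers lay at 3852 to 4038 FPKM in SNI and 4129 to 5075 in SNI + G15, with 2 of 5 markers called higher and 0 lower. Most of that sum was Apoe, which was not called in this comparison. The part of satellite glia in the change of Kcnj10 was not tested.

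Kcnj16, which encodes Kir5.1, a subunit that joins Kir4.1 and makes it sensitive to pH, rose in this comparison. It reached 1 FPKM, and so entered the test, only through the SNI + G15 libraries where it was high; in the fit without the FPKM filter it was called as well. It was at 0.46, 0.40 and 0.52 FPKM in the sham libraries, 0.31, 0.24 and 0.32 in the SNI libraries and 1.80, 1.31 and 2.05 in the SNI + G15 libraries. All SNI + G15 libraries lay above all others, and SNI lay below sham. Its log2 fold change between SNI + G15 and SNI was 2.55 ± 0.21 (edgeR adjusted p = 0.000177), made under every alternative that tested the gene. The level was low throughout, with between 19.2 and 22.8 estimated reads in an SNI library and between 98.1 and 153 in an SNI + G15 library. Markers of some non-neuronal cells rose in the same comparison. Summed fibroblast markers went from 343 to 348 FPKM in SNI to 473 to 495 in SNI + G15, with 4 of 4 genes called higher. Pericyte and smooth muscle markers went from 46.4 to 51.4 FPKM to 62.7 to 67.4, with 3 of 4 higher. Erythroid and T cell markers went the other way, with 2 of 2 called lower in each list. Of the Schwann cell markers 4 of 5 were called higher, of the satellite glia markers 2 of 5 and of the endothelium markers 1 of 4. Of the macrophage markers 1 of 5 was called higher, and of the neutrophil markers 0 of 2. The part of these markers in the rise of Kcnj16 was not tested.

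The other rises were small. Kcnmb4 changed by 0.28 ± 0.08 (edgeR adjusted p = 0.0454), on top of its rise with injury. Kcnk2 changed by 0.23 ± 0.07 (edgeR adjusted p = 0.0479), back to the sham range. Kcnv1, at 6.82, 6.69 and 6.77 FPKM in the sham libraries, 4.54, 4.84 and 4.35 in the SNI libraries and 5.66, 5.93 and 5.05 in the SNI + G15 libraries, changed by 0.29 ± 0.08 (edgeR adjusted p = 0.0441), which placed it between SNI and sham with no overlap. All 3 of these calls were lost by DESeq2 and limma, without the FPKM filter, without each of the SNI libraries and without SNI + G15 replicate 2, and those of Kcnk2 and Kcnv1 with the replicate block. Those of Kcnmb4 and Kcnk2 were also lost without SNI + G15 replicate 3, and those of Kcnk2 and Kcnv1 also without SNI + G15 replicate 1. Of the 9 genes that rose with injury, Kcnn3 was the one called lower in SNI + G15. Kcnq3 changed by -0.42 ± 0.14 (edgeR adjusted p = 0.0762) and Kcnk10 by -0.33 ± 0.12 (edgeR adjusted p = 0.0955), neither of them called.

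The 3 most abundant members, Kcnab2, Kcnip3 and Kcnd1, were not called in this comparison, while Kcnh2, Kcna1 and Kcna2, next in order, were the falls given above. Kcnab2 changed by -0.10 ± 0.05 (edgeR adjusted p = 0.169), Kcnip3 by -0.10 ± 0.05 (edgeR adjusted p = 0.178), and Kcnd1 by -0.03 ± 0.04 (edgeR adjusted p = 0.661), values smaller than those of the injury. Kcnc4, lower in the order, was not called either, at -0.09 ± 0.07 (edgeR adjusted p = 0.428). A missed threshold does not show that the groups were equal. Of the two-pore genes 0 fell by edgeR and 0 by DESeq2, against 1 by limma and 2, Kcnk1 and Kcnk10, at an unadjusted p below 0.05. Kcnk1, at -0.18 ± 0.06 (edgeR adjusted p = 0.0607), and Kcnk18, at -0.23 ± 0.11 (edgeR adjusted p = 0.191), were not called, nor were Kcnk3, at -0.08 ± 0.12 (edgeR adjusted p = 0.673), and Kcnk4, at 0.12 ± 0.06 (edgeR adjusted p = 0.191).

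**Figure D4:**
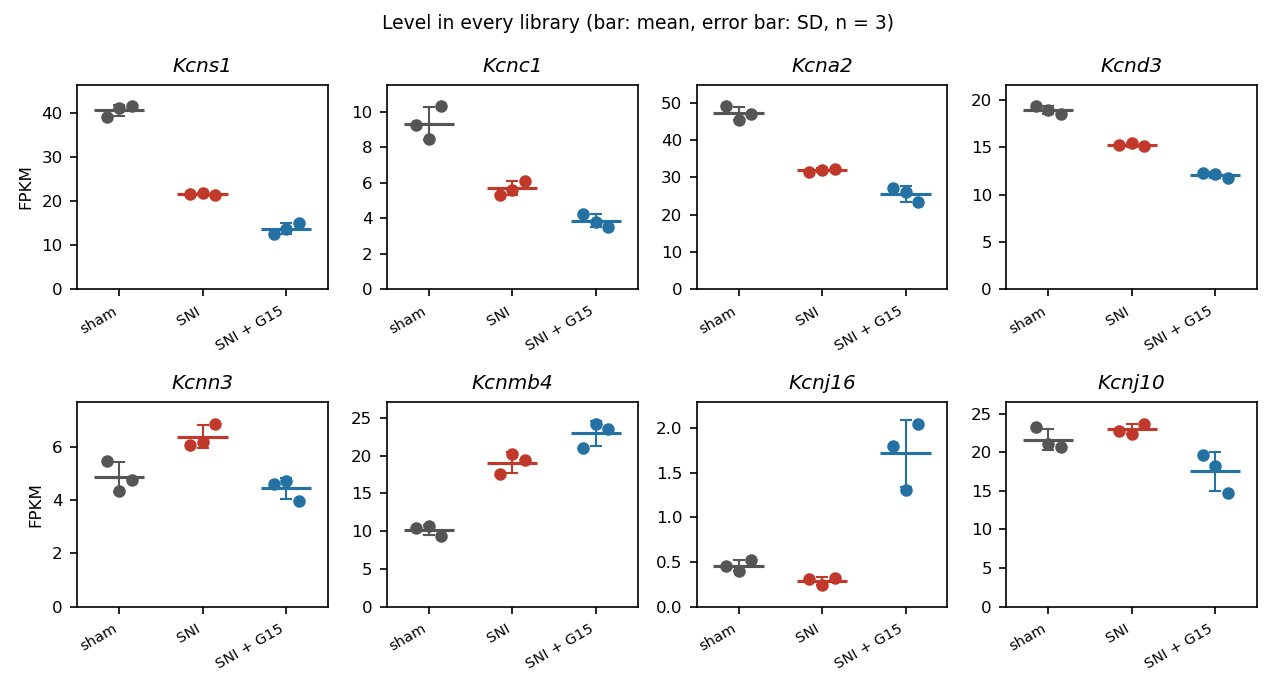
FPKM of 8 genes in each library (vertical axes, FPKM, starting at 0); points are libraries, lines the means and error bars the SD of 3 libraries. Kcns1, Kcnc1, Kcna2 and Kcnd3 step down from sham to SNI to SNI + G15, Kcnmb4 steps up, and Kcnj16 is at 1.31 to 2.05 FPKM in SNI + G15 and at or below 0.52 in the other groups.

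The third comparison, SNI + G15 with sham, gives the distance that remained from uninjured ganglia, and shares libraries with both others. Of the 71 genes, 46 were lower and 7 higher in SNI + G15 (edgeR quasi-likelihood test, adjusted p below 0.05), against 21.9% and 21.4% of all tested genes. The median log2 fold change of the 71 was -0.45, against 0.00 over all genes. Longer genes were lower in this comparison too. Over the same 5 length groups, the median of all genes went from 0.12 in the shortest to -0.08 in the longest. The share of all genes called lower went from 8.95% to 31.7%. The medians of the potassium channel genes in these groups lay between -0.62 and -0.31. The part of transcript length in these calls was not tested. Libraries did not overlap, with SNI + G15 lower, for 47 genes, against 22.8% of all genes, and with SNI + G15 higher for 8, against 30.1%. Without SNI + G15 replicate 3 the counts were 44 lower and 8 higher. Of the 23 genes below 1 FPKM, 3 were called for SNI with sham in the fit without the FPKM filter, against 34% of all genes in that fit, and 3 for SNI + G15 with sham, against 32.5%. Changes of at least 1 on the log2 scale numbered 8 in this comparison, against 5.9% of all tested genes, and 1 in each of the other comparisons (Kcnip2 for SNI with sham and Kcnj16 for SNI + G15 with SNI), against 4.91% and 1% of all genes.

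The 8 genes were 5 voltage-gated subunits, a KChIP, a BK beta subunit and a Kir subunit. Kcns1 changed by -1.58 ± 0.08 (edgeR adjusted p = 3.04e-07) against sham, so that its SNI + G15 mean of 13.8 FPKM stood against 40.7 in sham. Kcnc1 changed by -1.30 ± 0.09 (edgeR adjusted p = 3.23e-06) and Kcns3 by -1.17 ± 0.06 (edgeR adjusted p = 4.59e-07). Kcnh7 changed by -1.04 ± 0.07 (edgeR adjusted p = 3.3e-06) and Kcnip2 by -1.03 ± 0.19 (edgeR adjusted p = 0.00186). Kcnmb4 rose by 1.14 ± 0.09 (edgeR adjusted p = 4.4e-06) and Kcnj16 by 1.95 ± 0.20 (edgeR adjusted p = 3.35e-05). In each of the genes named here the SNI + G15 libraries lay wholly outside the sham range, and the calls were made under every alternative that tested the gene.

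Among genes not called between SNI and sham, Kcnma1 changed against sham by -0.39 ± 0.07 (edgeR adjusted p = 0.0015) and Kcnj10 by -0.34 ± 0.09 (edgeR adjusted p = 0.0148), the latter lost without sham replicate 1 and with neuronal scaling. Kcnt1 changed by -0.25 ± 0.07 (edgeR adjusted p = 0.0147), lost without sham replicate 3 and with neuronal scaling. Kcnn1 changed by -0.25 ± 0.09 (edgeR adjusted p = 0.0446), lost by DESeq2 and limma, with neuronal scaling or the replicate block, without the FPKM filter, and without sham replicate 1 or 3 or SNI + G15 replicate 1 or 3. Genes that had moved with injury and were not called against sham were Kcnn3, at -0.10 ± 0.11 (edgeR adjusted p = 0.47), Kcnk2, at 0.01 ± 0.07 (edgeR adjusted p = 0.915), Kcnk10, at 0.04 ± 0.11 (edgeR adjusted p = 0.81), Kcnq3, at -0.09 ± 0.15 (edgeR adjusted p = 0.667), and Kcnj13, at -0.52 ± 0.23 (edgeR adjusted p = 0.0888).

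Genes outside the Kcn name that bind, anchor or regulate potassium channels were read from the same fits, 36 of 39 listed being above the filter. Between SNI and sham, 20 of the 36 fell and 7 rose. Between SNI + G15 and SNI, 13 fell and 0 rose, with 0 rises also by DESeq2 and by limma and 1, Ehmt2, at an unadjusted p below 0.05. Between SNI + G15 and sham, 18 fell and 5 rose. Of all tested genes, 22.4% were called lower and 23.3% higher in the first comparison. These shares were 7.25% and 7.98% in the second and 21.9% and 21.4% in the third. Of the 36 partners, 55.6% fell and 19.4% rose in the first, 36.1% and 0% in the second, and 50% and 13.9% in the third. In each comparison the partners' share of rises was below that of all genes, and their share of falls above it. Some partners of channels that fell were themselves lower: Dpp10, which binds Kv4 with the KChIPs, was at 53.4, 48.3 and 47.2 FPKM in the sham libraries, 34.1, 34.8 and 34.5 in the SNI libraries and 27.9, 26.4 and 21.98 in the SNI + G15 libraries, a change between SNI and sham of -0.57 ± 0.04 (edgeR adjusted p = 1.88e-06). Amigo1, which binds Kv2, was at 49.2, 45.2 and 48.3 FPKM in the sham libraries, 31.6, 30.5 and 33.6 in the SNI libraries and 27.6, 27.6 and 24.9 in the SNI + G15 libraries, a change of -0.64 ± 0.04 (edgeR adjusted p = 6.02e-07). Lgi3, of the family that links Kv1 channels to ADAM proteins, was at 102, 104 and 104 FPKM in the sham libraries, 66.4, 64.8 and 65.0 in the SNI libraries and 54.1, 56.3 and 52.0 in the SNI + G15 libraries, a change of -0.69 ± 0.03 (edgeR adjusted p = 7.76e-08). In Dpp10, Amigo1 and Lgi3, sham, SNI and SNI + G15 lay apart in that order from high to low. The Lgi family did not move together. Between SNI and sham, Lgi2 rose by 0.29 ± 0.06 and Lgi4 by 0.28 ± 0.04 on the log2 scale, both called under every alternative. Lgi1 changed by -0.16 ± 0.05, a call lost by DESeq2 and limma.

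Lingo1, which binds BK channels, was at 47.4, 46.8 and 52.0 FPKM in the sham libraries, 31.7, 31.6 and 33.2 in the SNI libraries and 31.5, 33.4 and 28.7 in the SNI + G15 libraries, with a change between SNI and sham of -0.61 ± 0.05 (edgeR adjusted p = 3.27e-06) and SNI overlapping SNI + G15. Abcc8, the sulfonylurea receptor that joins Kcnj11, was at 3.82, 3.67 and 4.05 FPKM in the sham libraries, 3.34, 3.07 and 3.10 in the SNI libraries and 2.01, 2.18 and 1.88 in the SNI + G15 libraries. It changed between sham and SNI by -0.31 ± 0.07 (edgeR adjusted p = 0.00395) and between SNI and SNI + G15 by -0.63 ± 0.08 (edgeR adjusted p = 0.00122), the largest change of any partner in that comparison. Dpp6, the other Kv4 partner of its family, changed by -0.46 ± 0.03 and then by -0.22 ± 0.03 on the log2 scale. Rest, the repressor that binds the RE1 element, was at 1.44, 1.24 and 1.13 FPKM in the sham libraries, 1.53, 1.86 and 1.55 in the SNI libraries and 1.83, 1.47 and 1.63 in the SNI + G15 libraries. It was higher in SNI than in sham by 0.35 ± 0.11 (edgeR adjusted p = 0.0253), with no overlap but at low levels; the call was lost by DESeq2 and limma, and without sham replicate 2 or 3 or SNI replicate 2.

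Transcript shares were read for the 42 potassium channel genes that had more than 1 listed transcript and at least 1 FPKM in every library. A shift was counted where the share of a transcript in its gene's FPKM differed by at least 10 percentage points between group means with no overlap of libraries. Between SNI and sham, 4 of the 42 genes held a shift, against 9.63% of 7489 genes of the whole table; between SNI + G15 and SNI, 2 did, against 7.89%; and between SNI + G15 and sham, 5 did, against 9.35%. These shares are descriptions with no test, since the authors' method divides reads between similar transcripts by estimate. Those between SNI and sham included Kcnip1, Kcnip2 and Kcnk10.

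The clearest were in Kcnip1 and Kcnk10. In Kcnip1, transcript NM_001261388.1 took 43.7%, 45.6% and 47.9% of the gene's FPKM in the sham libraries, 13.0%, 13.7% and 23.3% in SNI and 10.2%, 9.17% and 11.95% in SNI + G15. Transcript NM_022929.2 of the same gene took 35.96%, 42.0% and 36.2% in sham, 70.3%, 71.9% and 62.6% in SNI and 77.2%, 66.6% and 73.97% in SNI + G15. The transcripts thus changed places as the leading one, while the gene as a whole, Kcnip1, fell by 0.39 on the log2 scale between sham and SNI. In Kcnk10, NM_023096.2 took 36.1%, 31.2% and 31.1% in sham, 50%, 51.0% and 51.4% in SNI, and 61.6%, 50% and 47.4% in SNI + G15. XM_017594351.1 of Kcnk10 took 63.9%, 54.6% and 53.3% in sham, 41.5%, 46.6% and 43.9% in SNI and 32.9%, 35.3% and 37.1% in SNI + G15. The SNI and SNI + G15 libraries of NM_023096.2 overlapped, and both lay above sham.

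**Figure D5:**
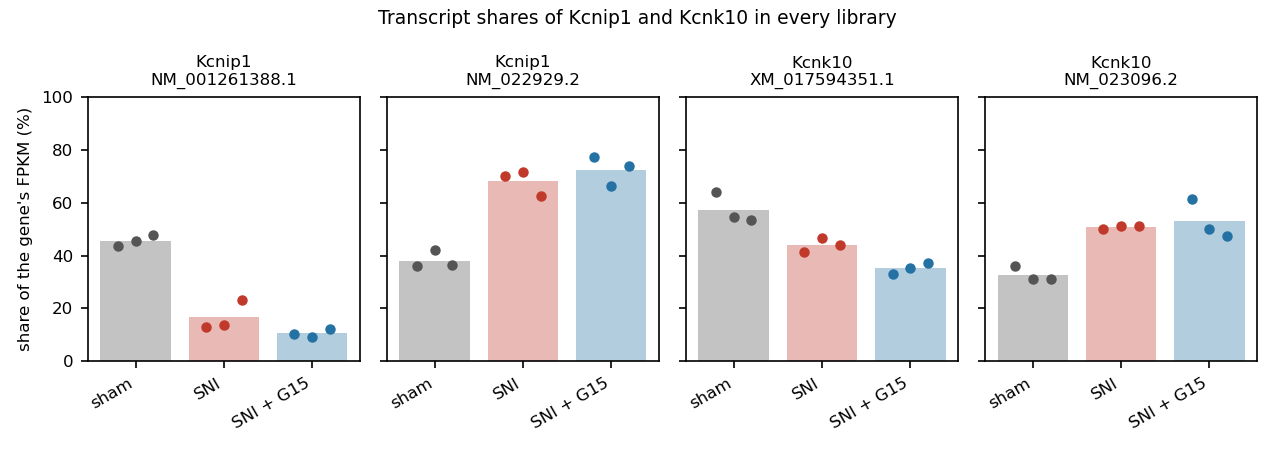
Share of the gene's summed transcript FPKM (vertical axis, percent, 0 to 100) taken by each of 2 transcripts of Kcnip1 and of Kcnk10 in the 3 groups; points are libraries and bars the means of 3 libraries. The first Kcnip1 transcript makes 45.7% in sham, 16.6% after injury and 10.4% after injury with G15, and the second 38.1%, 68.2% and 72.6%.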

How the data were processed

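RNA-Seq libraries of DRG tissue (150 bp paired reads), 3 in each of the groups sham, SNI and SNI + G15, were used. The authors deposited FPKM per gene and per transcript, normalised for depth and length, and estimated counts per gene, which are not normalised. The aligner and annotation are not given in the sources used here; the submitters' processing notes name the mouse build GRCm38 (mm10), although the gene IDs are of rat, so coordinates come from RefSeq's GRCr8 and were not joined to the reads. Whether counting used strand is not stated. Columns named Control were read as the sham libraries, because the remaining column names carry the labels of both injured groups. Deposited TPM and group averages were not used.

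Libraries were grouped by their titles, and totals lay between 18484557 and 18756736 estimated reads, so genes with few reads are less precise. Estimated counts were rounded and tested pairwise with edgeR 4.0.16 (TMM, quasi-likelihood test, two-sided, Benjamini-Hochberg) in R 4.3.3 over 14305 genes that reached 1 FPKM in any library; 6 libraries entered each fit. The p-values measure the spread between these libraries, since nothing says more of their origin. Of the 71 genes, 27 had estimated counts that were not whole in at least 1 library, by a tolerance of 0.005. Alternatives used DESeq2 1.42.0, limma 3.58.1 (log2 of FPKM plus 1 or 0.1), other scalings and filters, a joint fit of all 9 libraries, leaving out single replicates, and a block for the replicate number. Counts were simulated for 14305 genes, 200 of them changed by 1 on the log2 scale. Of these, edgeR recovered 88.5% for SNI against sham with 12 false calls, and 91.5% for SNI + G15 against SNI with 14. For SNI + G15 against sham it recovered 87.5% with 15 false calls. The simulated share of changed genes was far below the 45.7% of genes called between SNI and sham, a setting that was not simulated. Most changes reported here were smaller than 1, and recovery of smaller changes was not simulated.

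The members, classes, partner and marker lists were chosen with earlier results of these data known. Values are given in every library for genes called with a log2 fold change of at least 1 in size against sham, for all genes called between SNI + G15 and SNI, for the 3 most abundant of each class and for a list of members known in sensory neurons or glia. Partners are named where called at 0.5 or more, in part by example, with Rest and the other genes of the Lgi family. The values of some members are not reported here, and counts over all members include them.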

Additional observations from a re-analysis of the deposited data

How the results depend on the processing

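The 41 falls with injury and the 46 falls of SNI + G15 against sham stayed within 1.5 times of these counts under every alternative run. Between SNI + G15 and SNI, the 4 rises became 1 by DESeq2, by limma with either pseudocount and with all genes of at least 1 count, and 2 with the replicate block, and the 19 falls became 11 when scaled to pan-neuronal markers. By DESeq2, partner rises went from 7 to 4 with injury and from 5 to 3 for SNI + G15 against sham; with neuronal scaling the partner rises between SNI + G15 and SNI went from 0 to 1 and the falls from 13 to 6. That scaling moved the median of all genes by 0.11 on the log2 scale between SNI + G15 and sham, and the calls over all genes from 1142 higher and 1037 lower to 2151 and 478 between SNI + G15 and SNI. As CPM, the SNI sums were 74.6% of sham for all members, 68.7% for auxiliary, 87.4% for inward rectifier, 81.3% for two-pore and 98.4% for calcium- and sodium-activated genes. The causes of these moves were not tested.

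Leaving out 1 replicate at a time gave 7 to 8 rises and 37 to 43 falls for SNI against sham, 1 to 3 and 11 to 18 for SNI + G15 against SNI, and 5 to 8 and 42 to 46 for SNI + G15 against sham. For partners it gave 4 to 7 rises and 17 to 20 falls, 0 rises and 6 to 14 falls, and 3 to 5 rises and 17 to 19 falls. Signs changed in genes near 0 that were not called: on the log2 scale, with neuronal scaling Kcna4 was at 0.0058 and Kcnd1 at 0.0385 between SNI + G15 and SNI, and Kcnk12 at 0.11, Kcnk4 at 0.0518 and Kcnq3 at 0.033 against sham; Kcnk12 was at 0.001 by DESeq2 and by its size factors, 0.0305 and 0.034 by limma with pseudocounts of 1 and 0.1, 0.0145 with the stricter filter and 0.0096 with all 9 libraries. With replicates left out, Kcnma1 ran from -0.0133 to 0.0633 for SNI against sham. For SNI + G15 against SNI, Kcna4 ran from -0.10 to 0.0107, Kcnj8 from -0.17 to 0.13, Kcnk3 from -0.17 to 0.0256 and Kcnn4 from -0.0146 to 0.0572. For SNI + G15 against sham, Kcnk10 ran from -0.04 to 0.15, Kcnk12 from -0.063 to 0.0509, Kcnk2 from -0.0319 to 0.0562 and Kcnq3 from -0.25 to 0.0603.

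The replicate numbers are shared between groups but did not pair the libraries: same-numbered libraries correlated between -0.13 and 0.07 in their deviations from the group means, and 0 of 9 libraries correlated best with their own number in both other groups. With the replicate block, falls were 40, 15 and 44 and rises 9, 2 and 6 in the 3 comparisons. Depth limits genes such as Kcnj16, whose SNI libraries held 19.2 to 22.8 estimated reads.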

Other observations

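Of the 23 potassium channel genes below 1 FPKM in every library, 3 were called between SNI and sham in the fit without the FPKM filter (edgeR quasi-likelihood test, Benjamini-Hochberg adjustment), against 34% of the 19823 genes in that fit; they are named after their values were seen. Kcnh4, an ether-a-go-go-like subunit, was at 0.07, 0.09 and 0.04 FPKM in the sham libraries, 0.26, 0.27 and 0.24 in the SNI libraries and 0.42, 0.44 and 0.33 in the SNI + G15 libraries. The 3 groups did not overlap, and its log2 fold change between SNI and sham was 1.86 ± 0.36 (edgeR adjusted p = 0.00202). Kcnk9 (TASK-3), an acid-sensitive two-pore channel, was at 0.74, 0.78 and 0.59 FPKM in sham, 0.23, 0.41 and 0.41 in SNI and 0.37, 0.31 and 0.32 in SNI + G15, a change between SNI and sham of -0.89 ± 0.20 (edgeR adjusted p = 0.00480). Kcnd2, an A-type Kv4 subunit, was at 0.49, 0.47 and 0.53 FPKM in sham, 0.41, 0.31 and 0.26 in SNI and 0.29, 0.28 and 0.20 in SNI + G15, a change of -0.62 ± 0.22 (edgeR adjusted p = 0.0465). For Kcnk9 and Kcnd2 the sham libraries lay above all SNI libraries, and SNI overlapped SNI + G15. All 3 genes were called in the same direction between SNI + G15 and sham, which shares the sham libraries and in which 32.5% of 19789 genes were called without that filter.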
